A study of Mus musculus with 6 samples.

Results

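Hepatocytes of 1 developmental stage are not all alike, and the nuclei described here were read for how they differ among themselves. They are the 436 nuclei of stage G0, gestational day 0 as labelled, out of 1567 nuclei in the series, and were chosen by the library names in the table headers. Of these, 184 came from the library labelled perfusion and 252 from the library labelled liver tissue. Both groups are hepatocytes from the livers of female WT mice of the strain C57BL/6J, at the same stage, and the series' design text says that its mice were mated at about 8 weeks of age. Each nucleus was sequenced by Smart-seq3xpress, a plate-based method that makes a separate full-length cDNA library from each nucleus. The labels name no animal, so how many mice each library holds is unknown. There is 1 library per preparation, nuclei of 1 library are not replicates, and no difference below carries a p-value. The titles and library names speak of nuclei, whereas the protocol text describes whole hepatocytes picked after collagenase perfusion, and it does not describe how nuclei were obtained.

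The liver lobule is built around blood that enters beside the portal vein and leaves by the central vein. Periportal hepatocytes are known for urea formation, gluconeogenesis and amino acid breakdown, and pericentral hepatocytes for xenobiotic metabolism, bile acid synthesis and, in the layer next to the central vein, glutamine synthesis. Wnt signals from the central vein are known to maintain the pericentral programme. Nuclear RNA is weighted toward transcripts that are being made or retained there, so its levels are not those of the whole cell.

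Nuclei held a median of 1189260 reads in perfusion (183438 to 3687727) and 740249 in liver tissue (74092 to 3345403). For comparisons between nuclei each was thinned at random to 250000 reads, which left out 3 shallower nuclei of perfusion and 15 of liver tissue. Thinned nuclei had a median of 5397 detected genes in perfusion and 5669 in liver tissue, against 6851 and 6492 unthinned. Hepatocyte markers held a median of 1.08% of the reads in perfusion and 1.11% in liver tissue, and every thinned nucleus of both libraries had at least 3 reads of at least 3 of them, with Trf listed at 0. Markers of the other cell types had median shares of at most 0.0127%, with Lrat of the stellate list, Ms4a1 of the lymphocyte list and, in liver tissue, Krt19 of the cholangiocyte list at 0. At least 3 reads of at least 3 endothelial markers were found in 6 nuclei of perfusion and 7 of liver tissue, with 2 and 3 nuclei for stellate markers, 0 and 3 for Kupffer cell markers and 0 and 4 for erythroid markers. Doublets were not called, and these nuclei were kept.

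The same genes headed both libraries. Levels in this paragraph and the next are the authors' length-normalised values, which are scaled to 100000 per nucleus and divided by a length that follows exon length. The coefficients of variation beside them are those of the thinned nuclei, with reads scaled to a total of 1000000. Whether reads from introns were counted is not given in the sources used here, and it could raise genes of long span and short exons, so ranks between genes hold for these values only. Adk, the kinase that returns adenosine to AMP, was highest in both libraries, at 400 to 4119 (median 1930) in perfusion and 53.5 to 3804 (median 2009) in liver tissue. Hamp, which encodes hepcidin, the hormone that limits iron uptake, stood at 15.4 to 5331 (median 1726) in perfusion and 11.1 to 3663 (median 1225) in liver tissue. Immp2l, a subunit of the inner membrane peptidase of mitochondria, had medians of 1514 in perfusion and 1558 in liver tissue. Adk and Immp2l varied little between nuclei and Hamp more, with coefficients of variation of 0.294, 0.404 and 0.708 in perfusion and 0.277, 0.402 and 0.695 in liver tissue. Adk lies on chromosome 14 from 21052574 to 21448569 and Immp2l on chromosome 12 from 41024090 to 41955588 (GRCm38). Immp2l overlaps 10 other annotated genes, and the strand setting of the counting is not given in the sources used here, so its reads cannot all be assigned with certainty.

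Nuclear RNAs and secreted proteins filled the next ranks. Malat1, a long noncoding RNA retained in the nucleus, had medians of 1245 in perfusion and 1298 in liver tissue. Of the 30 highest genes it had the smallest coefficient of variation, 0.237 in perfusion and 0.276 in liver tissue. The small nucleolar RNAs Snord13 and Snord118 averaged 1105 and 1060 in perfusion and 1003 and 894 in liver tissue. They are 104 and 135 bases long in the annotation, so few reads give a high length-normalised value. Apoa2, an apolipoprotein of HDL, averaged 870.5 in perfusion and 1513 in liver tissue, while its medians were 712 and 784, and the highest nucleus of liver tissue reached 23921. Albumin (Alb) averaged 613 in perfusion and 684 in liver tissue, the pyrimidine-degrading Dpyd 613 and 707, the fatty acid binding protein Fabp1 585 and 541, and the growth hormone receptor Ghr 468 in both. Yam1, Gphn, Ahsg, Snord104, Errfi1, Cyp3a25, Ttr, Apoc1, Hamp2, Prr16, Apoc3, Cps1, Pid1, Apoe, Cyp2b9, Apoa1, Tmem126a and Cdo1 were also among the 30 highest. Of the 100 highest genes of each library, 93 were shared. The 10 highest genes held 11.5% of the summed level in perfusion and 11.4% in liver tissue, the 100 highest 28.1% and 28.3%, and the 1000 highest 61.8% and 62.0%.

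From here on, levels are CPM, reads scaled to a total of 1000000, of the thinned nuclei. They compare nuclei and not genes, and 1 read is 4 CPM. Spread was measured as the squared coefficient of variation over nuclei, set against the running median of genes of similar mean, and a gene was counted as variable at an excess of at least 1 on the log2 scale in both libraries. Of 5471 genes with a mean of at least 5 reads and reads in at least 20% of nuclei, 818 passed in perfusion and 782 in liver tissue. They shared 326 genes, 5.96% of those tested, or 39.9% of the genes of perfusion and 41.7% of those of liver tissue. Across genes, which are not independent, the excess in the 2 libraries had a Spearman rho of 0.51. Most of the shared genes were low: 209 of the 326 had a mean under 20 reads in both libraries, and 184 had reads in under 50% of the nuclei of a library.

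**Figure D1:**
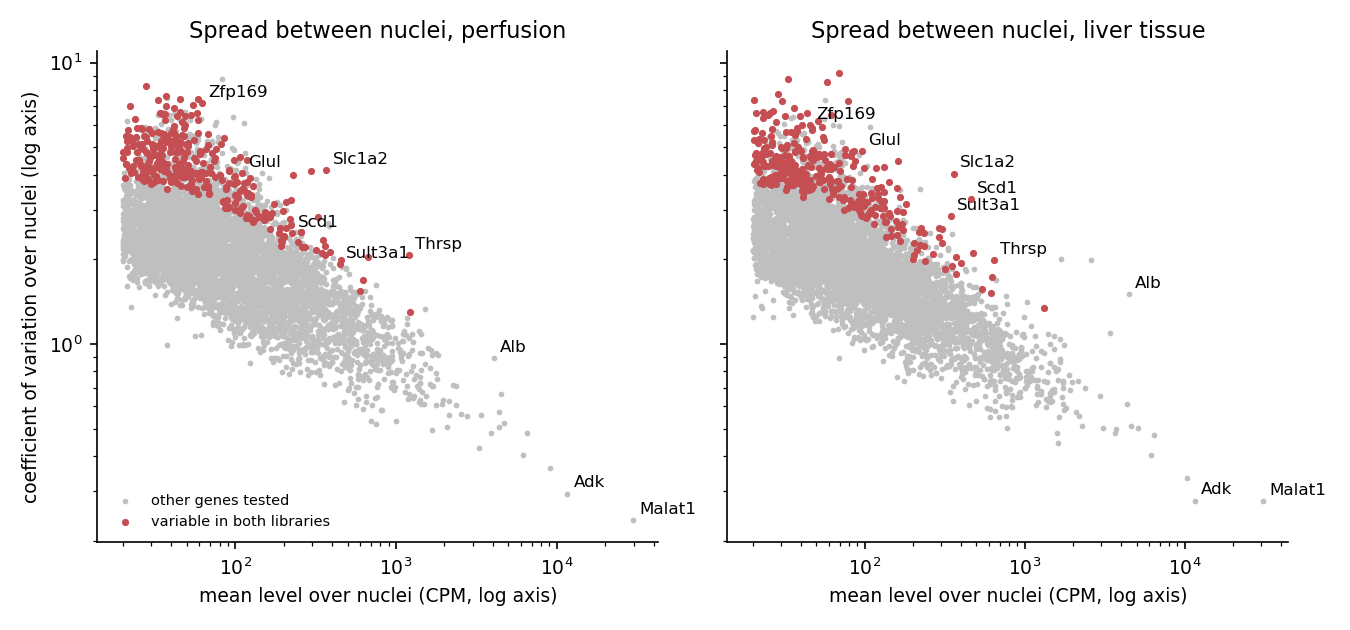
Coefficient of variation over nuclei (log axis) against mean level (CPM, log axis), with 1 point per tested gene, for 181 nuclei of perfusion on the left and 237 of liver tissue on the right. The 326 genes variable in both libraries are red. Slc1a2 lies above the genes of like mean in both panels, with coefficients of variation of 4.15 and 4.04, and Malat1 lies at the lower right with 0.237 and 0.276.

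Slc1a2 headed the variable genes. It encodes the glutamate transporter GLT-1, which hepatocytes next to the central vein are known to use beside glutamine synthetase, and lies on chromosome 2 from 102658659 to 102790784 (GRCm38). Its level ran from 0 to 12160 CPM with a median of 4 in perfusion and from 0 to 13420 CPM with a median of 4 in liver tissue. Its excess was 3.35 in perfusion and 3.41 in liver tissue. In both libraries, then, most nuclei sat near 0 and a few far above, with some between. Glul, glutamine synthetase itself, was also among the 30 leading genes, from 0 to 3136 CPM (median 4, excess 2.08) in perfusion and from 0 to 4212 CPM (median 4, excess 2.66) in liver tissue. Both overlap genes on the other strand, Gm13872 for Slc1a2 and Teddm2 for Glul, with which reads cannot be told apart if strand was not used.

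Nuclei with at least 100 thinned reads of Slc1a2, a limit set after its distribution was seen, numbered 14 of 181 in perfusion (7.73%, 95% exact interval 4.29% to 12.6%) and 20 of 237 in liver tissue (8.44%). Intervals of shares here cover counting error only. In perfusion their Slc1a2 level ran from 652 to 12160 CPM (median 4252), against a median of 0 and a highest value of 308 CPM in the other nuclei. In liver tissue it ran from 420 to 13420 CPM (median 3498), against a median of 0 and a highest value of 212 CPM. The choice of nuclei fixes this gap, and the other genes below were not used to choose them. The other nuclei are all the rest, of any zone, and no comparison with other pericentral nuclei alone was made.

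The Slc1a2-high nuclei carried more RNA of other genes known from the layer around the central vein. Glul had a median of 860 CPM in the Slc1a2-high nuclei of perfusion, against 4 CPM in the others, and 266 CPM in those of liver tissue, against 0 CPM. Both kinds of nuclei overlapped, since the lowest Slc1a2-high nucleus had 8 CPM in perfusion and 4 CPM in liver tissue and the highest other nucleus 300 and 204 CPM. Lgr5, the receptor of the Wnt-amplifying R-spondins, had medians of 268 CPM in perfusion and 130 CPM in liver tissue in the Slc1a2-high nuclei, against 0 CPM in the other nuclei of both. Tbx3, a transcription factor of pericentral hepatocytes, had 246 and 128 CPM, against 0 in both, and reads were found in 14 of 14 and 19 of 20 Slc1a2-high nuclei, against 80 of 167 and 87 of 217 others. The Wnt feedback gene Axin2 averaged 208 CPM in perfusion and 21.0 CPM in liver tissue, against 8.05 and 7.28 CPM, but its median in the Slc1a2-high nuclei was 34 and 6 CPM. Nkd1, Sp5 and Notum, other Wnt targets, had reads in at most 5 Slc1a2-high nuclei of a library. For Nkd1 these were 5 of 14, against 5 of 167 others, in perfusion, but 0 of 20, against 9 of 217, in liver tissue. Sp5 had 0 against 1 nuclei in perfusion and 4 against 0 in liver tissue, and Notum 1 against 0 and 0 against 3. Lgr5 and Tbx3 overlapped too, with highest other nuclei of 1276 and 836 CPM in perfusion and 708 and 1032 CPM in liver tissue.

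Periportal genes were lower in the same nuclei than in all the others, which include periportal nuclei. Hal, which opens histidine breakdown, averaged 13.4 CPM in the Slc1a2-high nuclei of perfusion, against 408 CPM in the others, and 6.60 CPM in those of liver tissue, against 483 CPM. Arg1, the arginase of the urea cycle, averaged 128 CPM in Slc1a2-high nuclei of both libraries, against 722 CPM in perfusion and 656 CPM in liver tissue. Cps1, which starts the urea cycle, averaged 1723 and 2551 CPM, against 4954 and 5369 CPM. Of the Slc1a2-high nuclei, 6 lay in the lower-numbered and 8 in the higher-numbered run of nuclei in perfusion (the runs are described further on), and 19 and 1 in liver tissue. In liver tissue the comparison with the others is therefore partly one between runs.

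**Figure D2:**
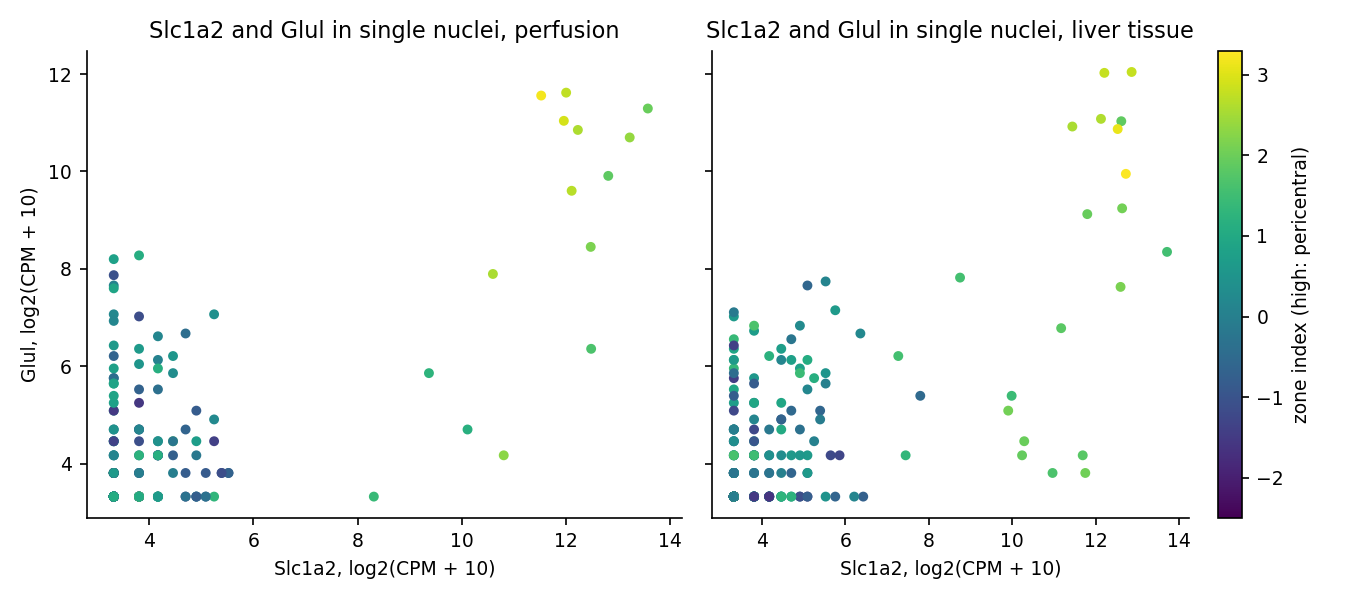
Glul against Slc1a2 in each nucleus, both as log2(CPM + 10), for perfusion on the left and liver tissue on the right, with 1 point per nucleus coloured by its zone index (yellow: pericentral end), into which both genes enter. The nuclei at the right of each panel with at least 100 thinned reads of Slc1a2 number 14 in perfusion and 20 in liver tissue. Their Glul ranges from near 0 to the highest values. The group is bounded by that limit: its lowest Slc1a2 was 652 and 420 CPM, and the highest of the other nuclei 308 and 212 CPM.

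The other leading variable genes were mostly low genes with rare high nuclei. Zfp169, a zinc finger gene, had a median of 0 CPM and a highest nucleus of 5456 CPM in perfusion, and 0 and 3864 CPM in liver tissue (excess 3.06 and 2.63). Tmem39b, Man2a2, Ormdl2, Fam219b, Myrf, Snx8, Tmem140, Napb, Sec11c, Poc1b, Plekha3, Aifm2, Commd6, Ube2a, Usp22, Klhl42, Polr3c, Amot, Tk2, Hspb11, Mre11a, Zc3h15, Fem1b, Sgcz, Mrfap1 and Cebpz complete the list beside Slc1a2, Glul and Thrsp. Man2a2, a mannosidase of the Golgi, had a highest nucleus of 5756 CPM in perfusion and 2852 CPM in liver tissue beside medians of 0, and in the lower-numbered run of perfusion its excess was -0.92. Thrsp differed from these. It is a lipogenic gene induced by thyroid hormone and carbohydrate, and it had reads in 92.3% of nuclei in perfusion and 92.8% in liver tissue, with medians of 168 and 100 CPM and highest values of 14420 and 8648 CPM. Its excess was 2.50 in perfusion and 2.17 in liver tissue.

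A measure that gives less weight to single extreme nuclei picked other genes. The SD of log2(CPM + 10) was set against its running median in place of the coefficient of variation. No limit was applied to it: the 818 genes of perfusion and 782 of liver tissue with the largest excess were taken, as many as had passed before. The libraries shared 494 of these, of which 51 were among the 326, and of the 30 leading genes 3 were. Thrsp led this order, with Cyp2e1 next. The third was Tmem126a, an assembly factor of mitochondrial complex I, at 0 to 4868 CPM (median 52) in perfusion and 0 to 6752 CPM (median 120) in liver tissue. Dnajc12, Ap3m1, Camk2b, Slc16a10, Asl, Sult3a1, Marf1, Cyp2c38, Gdi2, Insig1 and Esrrg were among those that followed.

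Some genes were off in many nuclei and on in many others, with few between. Off was 0 reads and on at least 10 reads of the 250000, and a gene was counted when each state held at least 20% of nuclei and the 1 to 9 reads between held fewer than either. This was met by 394 genes in perfusion and 197 in liver tissue. The libraries shared 73, 1.67% of the 4359 genes that were on in at least 20% of nuclei in both, or 18.5% and 37.1% of each list. The class is not sharply separate. The nuclei between made up 19.3% to 32.0% in perfusion and 19.4% to 32.9% in liver tissue for these genes, and 0 genes met the rule with on at 20 reads, whereas 2217 did with on at 5 reads.

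Scarna2, a small Cajal body RNA, stood first. It was off in 107 and on in 39 of 181 nuclei of perfusion (on in 21.5%, 15.8% to 28.3%) and off in 108 and on in 76 of 237 nuclei of liver tissue (32.1%, 26.2% to 38.4%). Cyp7a1, the rate-limiting enzyme of bile acid synthesis, was off in 61 and on in 76 nuclei of perfusion (42.0%, 34.7% to 49.5%) and off in 84 and on in 92 of liver tissue (38.8%, 32.6% to 45.3%). Where it was on, its median was 198 CPM in perfusion and 120 CPM in liver tissue. Sds, serine dehydratase, which turns serine into pyruvate, was off in 69 and on in 67 nuclei of perfusion and off in 94 and on in 97 of liver tissue, with a median of 220 CPM where on in both. Cyp7a1 lies on chromosome 4 from 6265612 to 6275633 and Sds on chromosome 5 from 120476526 to 120483932 (GRCm38).

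Both of these genes followed the zone axis described next, in opposite directions. Of the 68 on/off genes that could be tested for zone, 4 were pericentral (Cyp7a1, Pparg, Fmo2 and Nxph1) and 2 periportal, one of them Sds. Over all 4469 tested genes the shares were 1.50% and 0.738%. Pparg, a lipid-storage nuclear receptor usually low in hepatocytes, was on in 54 nuclei of perfusion (29.8%) and 66 of liver tissue (27.8%). Fmo2, a flavin monooxygenase of the female-biased list, was on in 48.1% and 53.2%. Acot4, Lnx1, Ifi27, Pgap2, Apol9b, Slc22a27, March3, Msmo1, Sult2a3 and Zscan26 were further members among the leading genes. Of the 73 genes 1 met the rule in every run of nuclei, and 7 differed at least 2-fold between runs in both libraries. Over all 4469 tested genes 1.39% were that much higher and 1.32% that much lower in the lower-numbered run. Tcea3, one of the 7 and a transcription elongation factor, was on in 27.4% of nuclei of the lower-numbered and 62.9% of the higher-numbered run in perfusion, and in 26.7% and 65.8% in liver tissue. Sult2a3, a female-biased sulfotransferase whose reads can be shared with its close paralogs, had reads in too few nuclei for that comparison and was on in 9.52% and 40.2% in perfusion and in 6.67% and 46.2% in liver tissue.

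**Figure D3:**
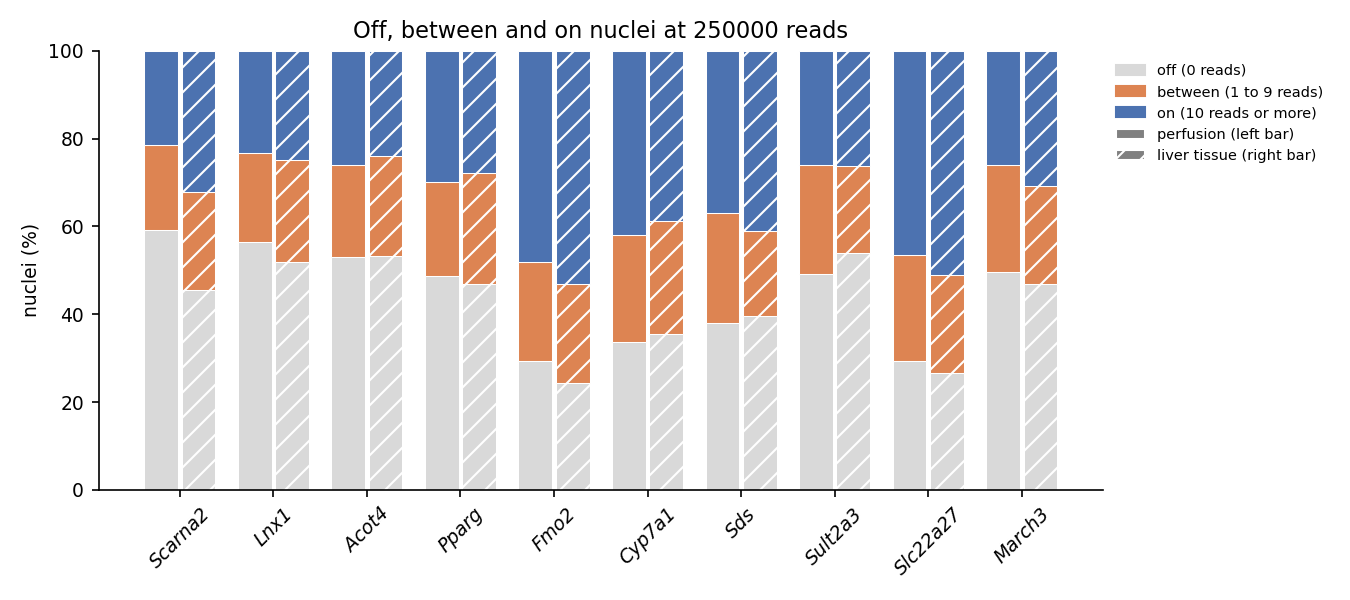
Percent of nuclei in which 10 on/off genes were off (0 reads), between (1 to 9 reads) and on (10 reads or more) at 250000 reads per nucleus. For each gene the left bar is perfusion and the right, hatched bar liver tissue; the between share is the smallest of each bar, at 19.3% and 22.4% for Scarna2.

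Many genes known to differ along the lobule differed between these nuclei too. Each nucleus received a zone index, the mean z score of 8 pericentral landmark genes minus that of 8 periportal ones on log2(CPM + 10), and a landmark was left out of the index for its own value. Pericentral landmarks were Glul, Oat, Slc1a2, Lect2, Cyp2e1, Cyp1a2, Gulo and Rgn, and periportal ones Cyp2f2, Hsd17b13, Hal, Gls2, Ass1, Pck1, Cdh1 and Ctsc. Oat was at 0 in every nucleus and entered as a constant, so the pericentral side rests on the other 7 genes. The scores of both ends ran against each other over nuclei, with a Spearman rho of -0.73 in perfusion (181 nuclei) and -0.65 in liver tissue (237 nuclei). Nuclei of a library share its preparation and sequencing, so these values are descriptions. The index was little related to reads per nucleus (rho 0.10 in perfusion and -0.13 in liver tissue) and to detected genes (0.24 and -0.16). As a continuous score it has no natural limit: 21 nuclei of perfusion and 32 of liver tissue lay within 0.1 of the limits that part them into 3 groups of like size, called pericentral, middle and periportal below.

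Of 4469 genes with reads in at least 50% of nuclei, 67 (1.50%) were higher toward the pericentral end in both libraries, at a rho of at least 0.3, and 33 (0.738%) toward the periportal end, at -0.3 or below. Perfusion alone had 142 and 56, and liver tissue alone 81 and 85. The pericentral genes shared were 47.2% of the list of perfusion and 82.7% of that of liver tissue, and the periportal ones 58.9% and 38.8%. Of the 67 and 33, 4 each were landmarks, and 0 genes passed in opposite directions. Within the runs, 45 genes (1.01%) passed the pericentral and 20 (0.448%) the periportal limit in every run, and 42 of the 67 and 20 of the 33 were among them.

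Cytochrome P450 genes were many in the pericentral list: of 47 tested, 17 were pericentral and 2, Cyp2f2 and Cyp2a4, periportal. Over all 4469 tested genes the shares were 1.50% and 0.738%. Of these P450 genes, Cyp2e1, Cyp1a2 and Cyp2f2 are landmarks, chosen for their zone. Cyp2e1, the P450 of ethanol and acetaminophen, ran from 0 to 4948 CPM (median 1204) in perfusion and from 0 to 6348 CPM (median 1216) in liver tissue. Its means in pericentral, middle and periportal nuclei were 2596, 1478 and 155 CPM in perfusion and 2452, 1331 and 189 CPM in liver tissue. With rho of 0.80 and 0.81 it followed the index most closely. Cyp2e1 lies on chromosome 7 from 140763739 to 140774987 (GRCm38). The landmark Gulo, the last enzyme of vitamin C synthesis in mice, had a rho of 0.72 in perfusion and 0.64 in liver tissue, Cyp1a2 0.48 and 0.53, and the calcium-regulating Rgn 0.46 and 0.47.

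Among genes that were no landmarks, Sult3a1, a sulfotransferase higher in female than in male mouse liver, came first. It averaged 1020, 261 and 53.9 CPM in the pericentral, middle and periportal nuclei of perfusion and 866, 153 and 13.8 CPM in those of liver tissue (rho 0.75 and 0.73). Its range was 0 to 6296 CPM in perfusion and 0 to 11068 CPM in liver tissue, with medians of 80 and 28 CPM. Slco1b2, an uptake carrier for organic anions, was never at 0 and differed less steeply, at 3564, 2206 and 1014 CPM in perfusion and 3502, 2197 and 1412 CPM in liver tissue (rho 0.71 and 0.65). Akr1c6, a hydroxysteroid dehydrogenase, had rho of 0.70 and 0.57, Aox3, an aldehyde oxidase, 0.58 and 0.66, and Ahr, the dioxin receptor that controls Cyp1a2, 0.60 and 0.49. Cyp2a5, Cyp2a22, Cyp2c38, Cyp27a1, Cyp7a1, Cyp3a16, Cyp4a14, Esrrg, Plbd1 and Slc16a10 complete the 15 leading pericentral genes, all of which passed the limit in every run.

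**Figure D4:**
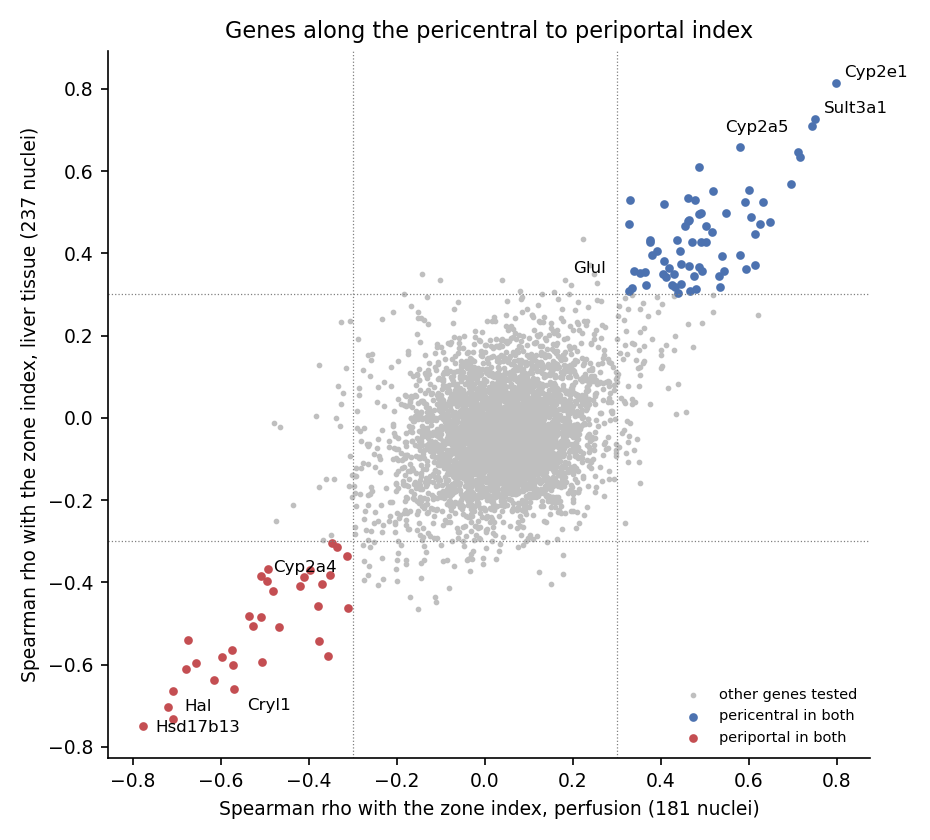
Spearman rho of each of 4469 genes with the zone index, perfusion (181 nuclei) on the horizontal and liver tissue (237 nuclei) on the vertical axis; dotted lines mark 0.3 and -0.3. The 67 pericentral genes (blue) fill the upper right corner up to Cyp2e1 at 0.80 and 0.81, and the 33 periportal genes (red) the lower left corner down to Hsd17b13 at -0.78 and -0.75.

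Periportal genes were led by Hsd17b13, Sds, Hal and Hsd17b6. The landmark Hsd17b13, a protein of lipid droplets, averaged 21.4, 241 and 547 CPM in the pericentral, middle and periportal nuclei of perfusion and 52.7, 225 and 448 CPM in those of liver tissue (rho -0.78 and -0.75). It lies on chromosome 5 from 103955440 to 103977410 (GRCm38). Sds averaged 2.88, 151 and 231 CPM in perfusion and 4.51, 66.5 and 295 CPM in liver tissue (rho -0.71 and -0.73). Sds overlaps Gm15690 and Plbd2 on the other strand. Cryl1, a dehydrogenase of the uronate pathway, was close to off at the pericentral end, with 3.41, 84.6 and 268 CPM in perfusion and 1.92, 24.2 and 281 CPM in liver tissue (rho -0.57 and -0.66). Hsd17b6, a hydroxysteroid dehydrogenase, had rho of -0.71 and -0.66, and Plxna2, a semaphorin receptor, -0.62 and -0.64. Uroc1, Gldc, Sfxn1, Slc25a51, Aspg, Hrsp12, Asl, Nrg4, Acly, Rad51b and Arsg complete the 15 leading periportal genes that were no landmarks, of which all but Rad51b and Arsg passed in every run.

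All 4 enzymes of histidine breakdown were periportal. In the order of their steps they are Hal (rho -0.72 in perfusion and -0.70 in liver tissue), Uroc1 (-0.66 and -0.59), Amdhd1 (-0.49 and -0.40) and Ftcd (-0.36 and -0.58). Amdhd1 was added to these after its value was seen. Uroc1, urocanate hydratase, averaged 952, 2236 and 2719 CPM from the pericentral to the periportal nuclei of perfusion and 1162, 1784 and 2494 CPM in liver tissue, a difference of degree, whereas Hal had 59.0, 458 and 620 CPM and 96.5, 466 and 766 CPM. In all, 5 of 17 amino acid catabolism genes were periportal and 0 pericentral (median rho -0.05 and -0.07), the others being Gls2, the liver glutaminase, and Sds. Hal and Gls2 are landmarks, chosen for their zone. Over all 4469 tested genes 0.738% were periportal and 1.50% pericentral. The median rho over all tested genes was 0.04 in perfusion and -0.04 in liver tissue.

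Of 7 urea cycle genes 2 were periportal, against 33 (0.738%) of all 4469 tested genes. Asl (rho -0.54 and -0.48) and Arg1 (-0.41 and -0.39) passed, while Ass1 (-0.36 and -0.15), Cps1 (-0.30 and -0.16), Otc (-0.04 and -0.11), Slc25a13 and Slc25a15 did not pass in both libraries. Asl, argininosuccinate lyase, averaged 635, 1360 and 2593 CPM from pericentral to periportal nuclei in perfusion and 1056, 1354 and 2184 CPM in liver tissue. Of 15 gluconeogenesis and glycogen genes, G6pc (-0.33 and -0.31) and Fbp1 (-0.31 and -0.33) were periportal and 0 pericentral, with Pck1 at -0.29 and -0.18 (list median rho -0.21 and -0.17). Neither G6pc nor Fbp1 passed in every run, with -0.08 and -0.10 in the lower-numbered run of perfusion, and nor did Arg1, with -0.10 there. Of 16 lipogenesis genes 2 were periportal, Acaca (-0.49 and -0.37), which forms malonyl-CoA, and Acly (-0.48 and -0.42), which supplies its acetyl-CoA (median -0.24 and -0.11).

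Bile acid genes leaned to the other end, with 6 of 17 pericentral and 0 periportal (median rho 0.20 and 0.28). Over all 4469 tested genes 67 (1.50%) were pericentral and 33 (0.738%) periportal. The called genes include both entry enzymes, Cyp7a1 (0.55 and 0.50) of the classic pathway and Cyp27a1 (0.52 and 0.55) of the alternative one, beside Cyp7b1 (0.52 and 0.45), Hsd3b7 (0.41 and 0.38), the carrier Slco1b2 and the export pump Abcc2 (0.49 and 0.36). Cyp7a1 averaged 252, 66.9 and 50.9 CPM from pericentral to periportal nuclei in perfusion and 145, 60.7 and 41.8 CPM in liver tissue. The salt export pump Abcb11 (-0.01 and -0.13) and the uptake carrier Slc10a1 (-0.02 and 0.03) stayed under the limit. Of 19 female-biased genes 6 were pericentral and 1, Cyp2a4, periportal (median 0.22 and -0.07). Of 15 xenobiotic genes 3 were pericentral, the landmark Cyp1a2, Cyp3a11 and the P450 reductase Por. Fatty acid oxidation and ketogenesis had 2 of 18, the omega-hydroxylases Cyp4a10 and Cyp4a14. Many P450 genes have close paralogs among which reads can be split.

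Lists of other zoned genes, which did not enter the index, were read along it. They were chosen with earlier results of these data known, so they are no independent check of the index. Of 18 tested pericentral genes 11 passed and 0 ran the other way (median rho 0.47 in perfusion and 0.43 in liver tissue). Of 14 tested periportal genes 9 passed and 0 ran the other way (-0.35 and -0.36). Over all 4469 tested genes 1.50% passed as pericentral and 0.738% as periportal. The glutamine layer is thin, and a rank correlation over all nuclei says little of it: Glul reached only 0.18 and 0.34 and Slc1a2 0.16 and 0.31, whereas Slc1a2 averaged 1082, 5.33 and 6.60 CPM from pericentral to periportal nuclei in perfusion and 1067, 8.56 and 9.17 CPM in liver tissue. Lect2, Oat, Cdh1 and Ctsc had reads in too few nuclei to be tested, with Oat, Hpd and Ugt1a1 listed at 0 in all G0 nuclei. All 3 overlap other annotated genes on the same strand, and whether their reads were lost in counting was not tested, so these zeros do not show that the genes are off. Among 8 tested genes of the Wnt pathway 1 passed, Tcf7l1, a repressor of Wnt targets, at the periportal end (-0.38 and -0.54). The Wnt-restraining ligases Rnf43 (0.52 and 0.26) and Znrf3 (0.36 and 0.22) passed in perfusion alone over all nuclei. Within the runs Rnf43 passed in all 4, at 0.44 and 0.48 in the lower-numbered and higher-numbered run of perfusion and 0.33 and 0.50 in those of liver tissue.

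Few genes stood clearly higher in the middle nuclei. Of the midlobular list 4 genes were tested, Hamp, Hamp2, Igfbp2 and Mup3, and 0 passed toward either end. A rank correlation along the index cannot show a peak in the middle, so this does not decide whether they have one. Hamp averaged 2409, 2466 and 2204 CPM from pericentral to periportal nuclei in perfusion and 1520, 1822 and 1844 CPM in liver tissue. No gene was higher in the middle nuclei than at both ends by 1 or more on the log2 scale in both libraries, and 14 were by 0.5 or more. Napb led them at 1.94 and 0.91, a gene with rare high nuclei, which can set a mean.

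Cyp2a5 and Cyp2a4 are near-identical genes that ran in opposite directions. Cyp2a5, a pericentral P450 that hydroxylates coumarin, averaged 441, 199 and 26.0 CPM in the pericentral, middle and periportal nuclei of perfusion and 483, 252 and 23.1 CPM in those of liver tissue (rho 0.74 and 0.71). Cyp2a4, a steroid hydroxylase higher in female liver, averaged 46.0, 178 and 249 CPM in perfusion and 80.8, 202 and 227 CPM in liver tissue (rho -0.51 and -0.38). In the higher-numbered run of liver tissue the rho of Cyp2a4 was -0.21, short of the limit. Of 50-base windows of the Cyp2a5 transcript 31.0% occur in Cyp2a4, and 36.1% the other way round, falling to 9.56% and 11.2% at 100 bases, so part of the reads of each may belong to the other. The 250 bases before each RefSeq start are shown because the pair differs in zone while the sequence there hardly differs. In the RefSeq sequences on GRCm38.p6, at chr7:26835089-26835338 for Cyp2a5 and chr7:26306942-26307191 for Cyp2a4, both on the plus strand and written 5′ to 3′, 245 of 249 aligned bases are identical (98.4%). The GENCODE starts, 26835305 for Cyp2a5 and 26307169 for Cyp2a4, lie inside these windows, so the last bases of each fall within the annotated gene. Capitals mark the bases that differ or have no partner.

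Cyp2a5: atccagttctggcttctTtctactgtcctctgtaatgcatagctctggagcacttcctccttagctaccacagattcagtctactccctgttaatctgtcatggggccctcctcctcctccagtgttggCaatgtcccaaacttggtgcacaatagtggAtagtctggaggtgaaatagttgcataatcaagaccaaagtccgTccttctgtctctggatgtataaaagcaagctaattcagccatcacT
Cyp2a4: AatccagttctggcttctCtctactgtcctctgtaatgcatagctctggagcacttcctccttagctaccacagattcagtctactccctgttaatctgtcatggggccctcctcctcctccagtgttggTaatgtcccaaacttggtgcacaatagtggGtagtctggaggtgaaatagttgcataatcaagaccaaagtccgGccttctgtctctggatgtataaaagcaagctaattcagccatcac

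The heptamer CTTTGAT is a core of the site bound by TCF factors at the end of Wnt signalling. It was searched on both strands of the first 250 bases of each RefSeq promoter window only. In these stretches it occurred for 1 of 48 matched pericentral promoters (2.08%), 2 of 26 matched periportal ones (7.69%) and 872 of all 27025 (3.23%), and in neither sequence above.

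Pairs were read among variable genes together with the landmarks. Of the 326 variable genes 142 had reads in at least 50% of nuclei, and with the landmarks that did so there were 152 genes, of which 15 of 11476 pairs had a Spearman rho of at least 0.4 in both libraries (0.131%). Cyp2e1 and Sult3a1 led with 0.70 in perfusion and 0.72 in liver tissue, then Hal and Hsd17b13 with 0.59 and 0.60. All 15 joined genes of the same end, namely Cyp2e1, Sult3a1, Gulo, Slc16a10, Cyp1a2 and Rgn at the pericentral end and Hal, Hsd17b13, Gls2 and Cyp2f2 at the periportal end. Most of these genes are landmarks, chosen for their zone, so that the pairs are zoned was largely fixed by adding them. Sult3a1 and Slc16a10, with 0.47 and 0.48, are the pair without a landmark. With the rank of the zone index taken out none of the 15 passed, partly by construction, since most of these genes enter the index. A different pair did, Pck1 and Scd1, with 0.53 and 0.41, against 0.59 and 0.31 before. Glul and Slc1a2 had 0.33 and 0.47, and 0.30 and 0.39 with zone taken out.

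A scan of all 4469 genes, added after the data were seen, found 375 pairs, 172 with zone taken out. These fell mainly into a group of 34 genes that included Alb, Fabp1, Scd1, Thrsp, Insig1, Apoa1, Mt1, Mt2, Dbi and the fibrinogens, and a group of 20 that included Igf1, Socs2, Cux2, Cyp2b9 and Cyp3a genes. Members of both groups followed the number that each nucleus has in its column name. In perfusion the levels of many genes changed between numbers 85 and 86, and in liver tissue between 131 and 133. The cuts were placed where the mean share of variance over genes was largest, 3.04% in perfusion and 4.74% in liver tissue, against medians of 1.45% and 2.33% over all cuts, so a difference between the runs is partly fixed by that choice. The labels do not say what the numbers stand for. With run and zone both taken out 15 pairs passed, some of which had not passed before. Among the 15 were Snord13 with Snord118, Cyp3a41a with its near-copy Cyp3a41b, and Apoa2 with Yam1.

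Scd1, Alb, Mt1 and Fabp1 were higher in the lower-numbered run of both libraries. Scd1, the desaturase that makes oleate, ran from 8 to 3172 CPM (median 184) in the lower-numbered run of perfusion, against 0 to 680 CPM (median 0) in the higher-numbered run. In liver tissue it ran from 32 to 18096 CPM (median 204), against 0 to 868 CPM (median 4). The ranges of the runs overlap in both libraries. Alb had medians of 6700 CPM in the lower-numbered run, against 1100 CPM in the higher-numbered run, in perfusion, and 5194 against 1356 CPM in liver tissue. Mt1, a metallothionein, had 704 against 8 CPM and 402 against 20 CPM, and Fabp1 1872 against 228 CPM and 1316 against 288 CPM.

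Igf1 and Alas1 were lower in the same run. Igf1, the growth factor that growth hormone induces in liver, ran from 4 to 4008 CPM (median 358) in the lower-numbered run of perfusion, against 324 to 7196 CPM (median 2160) in the higher-numbered run. In liver tissue it ran from 4 to 6444 CPM (median 474), against 136 to 6820 CPM (median 2368). Alas1, the first enzyme of heme synthesis, had medians of 116 CPM in the lower-numbered run, against 304 CPM in the higher-numbered run, in perfusion, and 80 against 328 CPM in liver tissue. Igf1 lies on chromosome 10 from 87858265 to 87937042, with Igf1os on the other strand, and Scd1 on chromosome 19 from 44394455 to 44407879 (GRCm38).

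**Figure D5:**
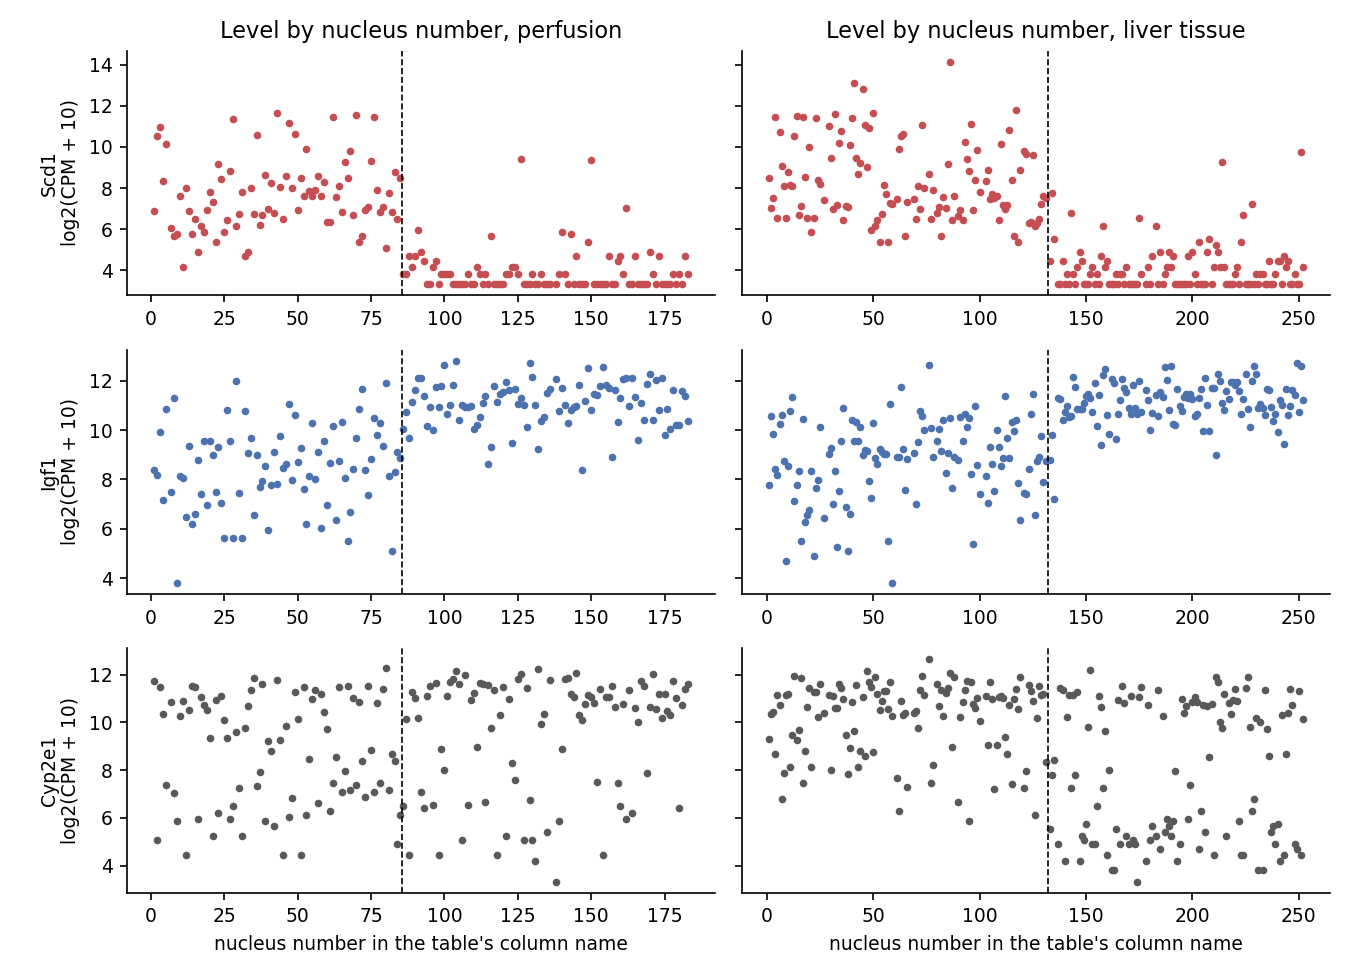
Scd1 (top), Igf1 (middle) and Cyp2e1 (bottom) as log2(CPM + 10) in each nucleus, ordered by the nucleus number in its column name, for perfusion on the left and liver tissue on the right; the dashed line is the cut between runs. Scd1 drops and Igf1 goes up at the cut in both libraries, with median Igf1 of 358 against 2160 CPM in perfusion and 474 against 2368 CPM in liver tissue.

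In both libraries 62 genes (1.39% of 4469) were at least 2-fold higher and 59 (1.32%) at least 2-fold lower in the lower-numbered run, and 15 passed in opposite directions. The log2 differences in both libraries had a Pearson r of 0.40 across genes, and their median over all genes was -0.08 in perfusion and -0.09 in liver tissue. Leading higher genes were Scd1 (log2 difference 3.94 and 4.71), Egr1 (4.75 and 1.70), Igfbp1, Thrsp, Mt1, Mt2, Fabp1, Slc16a1, Dbi, Alb, Insig1, Hmgcs1, Neto2, Sat1 and Actb. Egr1, an immediate early gene, had medians of 264 against 0 CPM in perfusion but of 20 against 12 CPM in liver tissue. Leading lower genes included Igf1 (-1.97 and -1.80), Cdh18, Rdh13, Adck1, Tcea3, Camk2b, Cyp3a41b, Pitpnc1, Cmip, Prox1os, Isoc2a, Alas1, March3 and Tpcn1.

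By list, lipogenesis had 5 of 16 genes higher and 0 lower (median log2 difference 1.26 and 0.61), against 1.39% and 1.32% of all 4469 tested genes. The 5 were Scd1, Thrsp, Elovl5, Plin2 and Lpin1, while the lipogenic regulator Srebf1 was at -0.92 and -2.13. Cholesterol synthesis had 2 of 10 higher, Insig1 and Hmgcs1, and the acute phase list 3 of 14, Mt1, Mt2 and Cp (0.93 and 1.15). The 3 fibrinogen genes Fga, Fgb and Fgg were the higher ones of 16 coagulation genes. Of 12 apolipoproteins Apoa1 was higher in both, although the median was 0.33 in perfusion and 1.67 in liver tissue. Of 19 female-biased genes 6 were lower and 0 higher (-1.11 and -0.73), among them Cux2, Acot3, Cyp2c69, Cyp3a41b and Cyp3a44, and among 18 genes of growth hormone, prolactin and IGF signalling Igf1 and the prolactin receptor Prlr were lower and Igfbp1 higher. Of 10 circadian clock genes 0 passed in either direction (-0.21 and -0.17), and of the 3 tested immediate early genes 1 was higher (2.72 and 0.34).

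Depth and zone moved with the runs too. Median reads were 1139093 in the lower-numbered and 1210006 in the higher-numbered run of perfusion, and 491640 and 1162608 in liver tissue, before thinning. Pericentral landmarks held a median of 19.4% of landmark reads in the lower-numbered and 71.3% in the higher-numbered run of perfusion, and 51.9% and 18.6% in liver tissue, the opposite order. Among the genes with opposite run differences were the zoned Hsd17b6 (2.39 and -1.34) and Gulo (-1.25 and 1.42). The part of depth or zone in the other run differences was not tested. For shares of each gene's variance over nuclei, run was entered first, and zone was given only what it added after run. Variance that run and zone share is counted as run, so the shares do not rank run against zone. Run took at least 10% for 286 genes (6.40%) in perfusion and 617 (13.8%) in liver tissue, and zone for 126 (2.82%) and 102 (2.28%). Run took the most for Fabp1 in perfusion, 66.1%, and for Scd1 in liver tissue, 64.0%, and zone for Cyp2e1 in perfusion, 55.0%, and for Hsd17b13 in liver tissue, 52.7%.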

How the data were processed

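Single-nucleus libraries of stage G0, 1 from perfusion (184 nuclei) and 1 from liver tissue (252 nuclei), were read from tables covering 6 libraries, and each nucleus was placed by its column name. One deposited table gives read counts, not normalised. The submitters' processing notes name featureCounts 1.5.3, HISAT2 2.1.0, Trimmomatic 0.39 and the build mm10 (GRCm38), with no roles. Strand setting, annotation and any removal of nuclei are not given in the sources used here. Reads were counted, which need not be separate molecules. The other deposited table is a length-normalised signal made by the authors: each count is divided by a gene length and each nucleus scaled to 100000 without Alb, Apoa2 and Fabp1, as worked out from its values. The implied length follows exon length (Pearson r 0.84 across 5872 genes, against 0.57 for gene span). The 92 ERCC rows hold 0 reads, 18143 of 40824 genes had no reads in these nuclei, and mitochondrial genes number 0.

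Computation used Python 3.11.15, NumPy 2.4.6, pandas 2.3.3 and SciPy 1.17.1. Counts were thinned without replacement to 250000 reads per nucleus. Shares have exact Clopper-Pearson 95% intervals. Simulated data, thinned to 100000 reads, were used to try the placing of the cut and the calls of zone, variable and on/off genes and of genes higher in the lower-numbered run. The other procedures were not tried on simulated data. Named genes are the 30 leading abundant, variable and on/off genes and the 15 leading genes per zone direction and per run direction, without gene models named Gm or Rik, plus up to 4 members of each list. Gene members and lists were chosen with earlier results of these data known. The runs of nucleus numbers (after 3 ways of placing them were tried) and all comparisons between them, the Slc1a2-high nuclei, the SD-based names, the scan of all gene pairs and the values within runs were added after the data were seen. No sample-level test was possible with 1 library per preparation. Coordinates come from GENCODE vM21 on GRCm38. A leading gene of several lists is not reported here.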

Additional observations from a re-analysis of the deposited data

How the results depend on the processing

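The lists differ in how firmly they stand. Of the 100 highest genes 93 were shared as reported and by CPM, 94 by medians and 65 by all 4 runs. Pericentral genes numbered 67 as reported and 45 to 76 in all alternatives. Periportal genes numbered 33, 30 to 41 in 9 alternatives and with the run taken out, and 20 in all 4 runs. The variable genes depended on the measure: against 326 there were 158 at 100000 reads, 508 on the authors' values, 98 at a mean of at least 20 reads and 94 in all 4 runs. The SD measure, with as many genes taken per library as had passed in the main measure, gave 494. On/off genes depended most, with 73 as reported, 6 at 100000 reads, 0 with on at 20 reads, 2217 with on at 5 reads and 1 in all 4 runs. The landmark scores had a rho of -0.65 in perfusion without Cyp2e1 and Cyp2f2, against -0.73, and of -0.56 in liver tissue with the lists outside the index, against -0.65. Gene pairs numbered 15, or 1 with zone taken out, 0 with zone and run taken out and 375 over all genes. Genes lower in the lower-numbered run numbered 59, or 98 with a pseudocount of 1. Shifting the cut by 5 numbers either way gave 60 and 59 higher genes, against 62, and 58 and 50 lower ones.

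Some named variable genes turned below the trend. With the highest nucleus left out, the excess was -0.065 in perfusion and -0.14 in liver tissue for Aifm2, -0.042 in liver tissue for Snx8 and -0.10 in perfusion for Usp22. In the higher-numbered run alone it was -0.25 in perfusion and -0.023 in liver tissue for Aifm2, -0.061 in perfusion for Hspb11, -0.059 in liver tissue for Poc1b, -0.39 in perfusion for Polr3c and -1.06 in liver tissue for Sgcz. In the lower-numbered run alone it was -0.92 in perfusion for Man2a2 and -0.80 in liver tissue for Polr3c. The cause was not tested. In the libraries named for Aifm2, Snx8 and Usp22, the excess went from at least 1 to below the trend when the gene's highest nucleus was left out. Of the other values of named genes, 0 changed sign. Of those of rho, 939 moved by less and 65 by more than a limit set from the number of nuclei in the library. That limit treats nuclei as independent, which nuclei of 1 library are not, so these counts do not measure how firm the values are. No paired analysis was possible because each preparation has 1 library and the results come from no test. Depth limits low genes most: at 250000 reads, 1 read is 4 CPM.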
